A study of Mus musculus with 7 samples.

Results

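The miRNA hairpins mmu-mir-31, mmu-mir-652, mmu-mir-149, mmu-mir-340 and mmu-mir-338 differed in tag counts between the repeats of a culture experiment on HL-1 cells, an immortalised atrial cardiomyocyte line of the mouse that keeps beating in culture. The 5 hairpins were selected on this difference, more than 1.5 log2 units in size between the time courses, so it is described below and not tested. They are 5 of 604 hairpins with at least 1 tag and 5 of the 497 that passed the filter on low counts.

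Cultures were sampled on days 1 to 4 after seeding, the span in which sparse HL-1 cells grow together and begin to beat. The labels name no treatment other than days in culture, and every library comes from this line, which stems from a mouse atrial tumour driven by SV40 large T antigen. Time course 2 gave 4 libraries (days 1, 2, 3 and 4) and time course 1, its independent repeat, gave 3 (days 1, 3 and 4), each from small RNA under 70 nt read on the SOLiD platform. The deposited lists held 4945093 to 6899411 tags with a sequence per library, of which 99.48 to 99.77% were placed on a hairpin. The paper gives a greater sequencing depth per library, so these are not shares of all tags read. A tag is a single read of a small RNA, and levels are given as CPM (counts scaled to a fixed library total) on TMM-scaled library totals, so they are relative to all hairpin tags of the library and a change of all miRNAs together would not be seen. The 5 hairpins gave 11808 tags, 0.0288% of all placed tags, and none of these tags fell equally well on another hairpin. Whatever differed between the courses in culture, extraction or library preparation cannot be told apart from the time course itself, nor can fewer cells with a miRNA be told apart from less of it per cell.

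A miRNA is cut from a hairpin by Drosha in the nucleus and Dicer in the cytoplasm, which leaves a duplex of a strand from the 5′ arm (-5p) and a strand from the 3′ arm (-3p). Usually a single strand stays bound to an Argonaute protein, and its seed, bases 2 to 8, pairs with target mRNAs. Both strands come from the same precursor, so their ratio within a hairpin tells whether they were recovered in the same proportion in each library.

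The mature strands of the 5 hairpins are shown because every value below belongs to one of them. They are RefSeq sequences from the GRCm38.p6 assembly, 5′ to 3′, with the seed in capitals.
miR-31-5p: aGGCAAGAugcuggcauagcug
miR-31-3p: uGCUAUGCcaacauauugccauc
miR-652-5p: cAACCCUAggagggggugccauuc
miR-652-3p: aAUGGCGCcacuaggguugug
miR-149-5p: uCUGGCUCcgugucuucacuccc
miR-149-3p: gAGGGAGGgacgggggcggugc
miR-340-5p: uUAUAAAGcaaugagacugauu
miR-340-3p: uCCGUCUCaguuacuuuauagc
miR-338-5p: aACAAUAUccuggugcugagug
miR-338-3p: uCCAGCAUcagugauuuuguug
The 10 strands have 10 distinct seeds, so no 2 of them form a seed family. Of the 1679 mature mouse miRNAs in the RefSeq table, 9 of the 10 seeds belong to no other miRNA. The seed of miR-149-3p is shared with miR-1943-5p, miR-6967-5p and miR-7016-5p.

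The 5 hairpins lie at separate places in the genome, and only mir-340 and mir-338 share a chromosome. In GRCm38.p6, Mir31 is at chr4:88910557-88910662 on the minus strand, overlapping an exon of the long non-coding RNA gene AL805899.1. Mir652 is at chrX:142739000-142739097 on the plus strand, in an intron of Tmem164. Mir149 is at chr1:92850378-92850443 on the plus strand in an intron of Gpc1, which encodes the heparan sulphate proteoglycan glypican-1. Mir340 is at chr11:50069702-50069799 on the plus strand, in an intron of the RING finger gene Rnf130. Mir338 is at chr11:120014765-120014862 on the minus strand, in an intron of the kinase gene Aatk. A further hairpin, Mir3065, lies at chr11:120014767-120014853 on the strand opposite to Mir338.

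mir-31 and mir-652 were lower in time course 2 than in time course 1, and mir-149, mir-340 and mir-338 were higher. In all 5 hairpins the libraries of the courses did not overlap on any day. Across all 497 hairpins the mean difference over days 1, 3 and 4 (time course 2 minus time course 1) had a median of 0.02 and a median size of 0.37 log2 units, 90% of hairpins were within 1.09, and 26 (5.23%) were past 1.5 in size. The courses did not overlap in 87 hairpins (17.5%). The members were selected from the tail of this distribution.

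mir-31, known for repressing dystrophin in muscle and for restraining invasion of human breast cancer cells, differed most of all 497 hairpins. It had 6.52, 11.6, 4.43 and 3.94 CPM on days 1, 2, 3 and 4 of time course 2, against 92.5, 54.1 and 45.5 CPM on days 1, 3 and 4 of time course 1. The highest library of time course 2 was below every library of time course 1, and the means were 6.62 ± 3.50 CPM (SD, n = 4) and 64.1 ± 25.01 CPM (SD, n = 3), 9.68-fold higher in time course 1. The difference was -3.81, -3.59 and -3.51 log2 units on days 1, 3 and 4, a mean of -3.63 ± 0.16 (SD, n = 3 days). Over all tags the difference was therefore nearly the same size on each of the 3 days. This rested on 158 tags in time course 2, against 1156 tags in time course 1. Over tags that start within 3 nt of an annotated start, a choice made after seeing the data, the days spread more. There the difference was -4.25, -3.65 and -3.54 log2 units, a mean of -3.81 ± 0.38 (SD, n = 3 days).

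mir-652, whose inhibition has been reported to lessen cardiac hypertrophy in mice, was the most abundant of the 5 in time course 1. It had 84.6, 40.4, 59.4 and 41.7 CPM on days 1, 2, 3 and 4 of time course 2, against 333, 163 and 221 CPM on days 1, 3 and 4 of time course 1. The means were 56.5 ± 20.6 CPM (SD, n = 4) in time course 2 and 239 ± 86.0 CPM (SD, n = 3) in time course 1. The log2 difference was -1.97, -1.46 and -2.40 on days 1, 3 and 4, with a mean of -1.95 ± 0.47 (SD, n = 3 days). The lowest library of time course 1, that of day 3, was above the highest of time course 2, that of day 1.

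mir-149, carried in the glypican-1 gene, moved the other way. It had 81.5, 38.9, 57.4 and 65.3 CPM on days 1, 2, 3 and 4 of time course 2, against 13.5, 17.5 and 11.8 CPM on days 1, 3 and 4 of time course 1. The means were 60.8 ± 17.7 CPM (SD, n = 4) and 14.3 ± 2.91 CPM (SD, n = 3), 4.25-fold higher in time course 2. The lowest level of time course 2 was on day 2, a day with no library in time course 1, and it was still above all 3 libraries of that course. The log2 difference averaged 2.25 ± 0.47 over 3 days (2.59, 1.71 and 2.45).

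mir-340, studied as a restraint on migration of human breast cancer cells, varied least of the 5 within time course 2, relative to its mean. It had 91.1, 76.5, 85.8 and 90.5 CPM on days 1, 2, 3 and 4 of time course 2, against 26.6, 25.2 and 15.5 CPM on days 1, 3 and 4 of time course 1. The means were 86.0 ± 6.72 CPM (SD, n = 4) and 22.4 ± 6.03 CPM (SD, n = 3), and the log2 difference averaged 2.02 ± 0.44 (1.77, 1.77 and 2.54). The larger difference on day 4 went with the lowest level of time course 1, while time course 2 stood near its own day 1 level.

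mir-338, which promotes oligodendrocyte differentiation in mice, was low in both courses. It had 23.3, 24.5, 26.9 and 20.8 CPM on days 1, 2, 3 and 4 of time course 2, against 8.92, 6.24 and 5.11 CPM on days 1, 3 and 4 of time course 1. The means were 23.9 ± 2.57 CPM (SD, n = 4) and 6.75 ± 1.957 CPM (SD, n = 3), and the log2 difference averaged 1.82 ± 0.39 (1.38, 2.09 and 2.00). Its time course 1 values rest on 64, 31 and 25 tags, as few as those of mir-31 in time course 2 (40, 68, 25 and 25 tags). mir-3065, on the opposite strand of the same locus, did not share the difference: it had 42 tags in time course 2, against 26 in time course 1, its means were 1.73 ± 0.74 CPM (SD, n = 4) and 1.57 ± 0.40 CPM (SD, n = 3), and the courses overlapped. These counts are too low to compare single libraries.

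**Figure D1:**
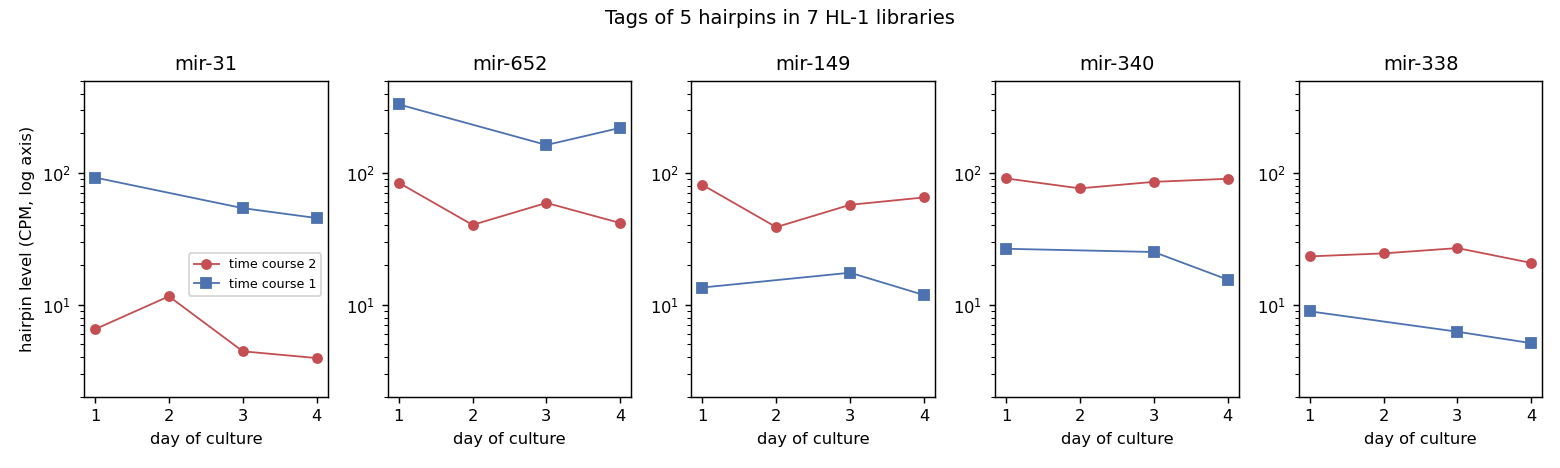
Level of each hairpin (CPM, log axis) by day of culture, with 1 point per library for time course 2 (red circles, 4 libraries) and time course 1 (blue squares, 3 libraries, none on day 2). In every panel the courses stay apart, with time course 2 below for mir-31 and mir-652 and above for mir-149, mir-340 and mir-338.

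The order of the 5 hairpins changed with the course. A tag stands for a whole small RNA of nearly the same length, so no correction for length was made. In time course 2, mir-340 led with a mean of 86.0 CPM, followed by mir-149 at 60.8, mir-652 at 56.5, mir-338 at 23.9 and mir-31 at 6.62 CPM. The first 3 overlapped between libraries, whereas mir-338 and mir-31 each stood below them without overlap. In time course 1, mir-652 led with 239 CPM, followed by mir-31 at 64.1, mir-340 at 22.4, mir-149 at 14.3 and mir-338 at 6.75 CPM. There only mir-340 and mir-149 overlapped.

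Against the whole table these 5 ranked 1 (mir-31), 5 (mir-149), 8 (mir-340), 11 (mir-652) and 16 (mir-338) in size of difference. Of all 497 hairpins, 14 (2.82%) were past 1.5 above and 12 (2.41%) below, and 205 (41.2%) had the same sign on all 3 days. The limit cut through neighbours that were alike: mir-335 and mir-342 lay just inside it at 1.52 and 1.504, mir-3472 and mir-1249 just outside at 1.48 and 1.47. For comparison, the abundant muscle miRNAs were at 59826 to 73531 CPM (mir-1a) and 107950 to 151360 CPM (mir-145a) in time course 2, against 50157 to 75829 CPM and 115970 to 141660 CPM in time course 1, and the courses overlapped for both.

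**Figure D2:**
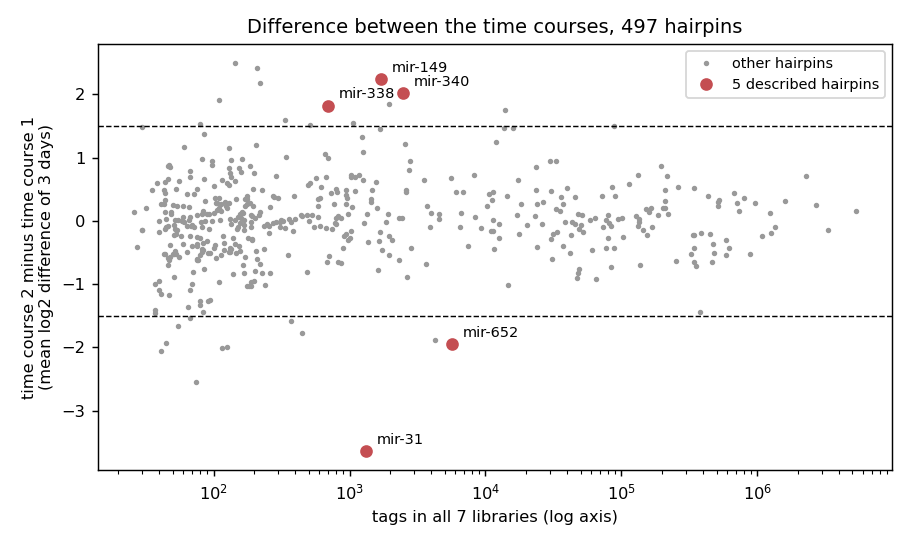
Mean log2 difference between the courses (time course 2 minus time course 1, days 1, 3 and 4) against the number of tags in all 7 libraries (log axis), 1 point per hairpin for 497 hairpins. Red points are the 5 described hairpins and dashed lines mark 1.5 in size, past which 26 hairpins lie. mir-31 has the largest difference, -3.63.

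Lists of marker hairpins of cell types were also compared between the courses. The summed level of the 7 muscle hairpins was 95019 to 115520 CPM in time course 2, against 90640 to 125260 CPM in time course 1, and the courses overlapped, as they did for the smooth muscle, endothelium, blood, neuron and glia, liver and embryonic stem cell lists. The fibroblast list (3 of 3 hairpins with tags, led by mir-199a) was at 22.9 to 33.1 CPM in time course 2, against 35.1 to 36.6 CPM in time course 1, without overlap, with a median difference of -0.51 log2 units over its 3 tested hairpins. The epithelium list (7 of 7 hairpins with tags, led by mir-200a) was at 13.5 to 17.5 CPM in time course 2, against 17.97 to 25.1 CPM in time course 1, again without overlap, with a median of -0.49 over 6 tested hairpins. No hairpin of these 2 lists passed 1.5 in size, and every hairpin of the 9 lists had tags. Past 1.5 were 2 of 4 tested neuron and glia hairpins (mir-129 at 1.85 and mir-124a at -1.99) and 1 of 5 tested embryonic stem cell hairpins (mir-292 at -2.01), which are named here after their values were seen. The fibroblast and epithelium lists were lower in time course 2 only as sums, since each of their hairpins overlapped between the courses. The leading mir-199a was at 12.4 to 25.4 CPM in time course 2, against 20.6 to 28.0 CPM in time course 1. The leading mir-200a was at 2.36 to 6.56 CPM, against 5.57 to 8.45 CPM. A fibroblast hairpin was at 0.03 log2 units. The part of these lists in the difference of the 5 hairpins was not tested.

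The strands of a hairpin followed each other for mir-31 and mir-340. miR-31-5p differed by -3.85 ± 0.43 log2 units and miR-31-3p by -3.32 ± 0.40 (SD, n = 3 days). miR-340-5p differed by 1.66 ± 0.21 and miR-340-3p by 2.23 ± 0.54. For mir-338 the -3p strand, which held most tags, differed by 2.03 ± 0.49 and the -5p strand by 0.96 ± 0.51. Over tags that start within 3 nt of the annotated start, a choice made after seeing the data, these were 2.26 and 1.58. For these 6 strands the libraries of the courses did not overlap. Their hairpins were chosen on this contrast, and the share of all strands without overlap was not counted. miR-338-5p had only 11, 5 and 10 tags on days 1, 3 and 4 of time course 1.

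For mir-652 the difference lay in a single strand. miR-652-3p had 72.3, 26.4, 52.5 and 32.4 CPM on days 1, 2, 3 and 4 of time course 2, against 322, 157 and 210 CPM on days 1, 3 and 4 of time course 1. miR-652-5p had 12.2, 14.0, 6.91 and 9.29 CPM on days 1, 2, 3 and 4 of time course 2, against 10.6, 6.64 and 10.4 CPM on days 1, 3 and 4 of time course 1. The -3p strand was thus far lower in every library of time course 2, and the -5p strand overlapped. The log2 differences were -2.15 ± 0.63 for miR-652-3p and 0.02 ± 0.26 for miR-652-5p (SD, n = 3 days). Counted only over tags that start within 3 nt of the annotated start, a choice made after seeing the data, they were -2.15 and 0.37.

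For mir-149 the tags that differed were also those of a single arm. miR-149-5p had 79.3, 35.6, 56.2 and 63.3 CPM on days 1, 2, 3 and 4 of time course 2, against 11.01, 14.1 and 7.15 CPM on days 1, 3 and 4 of time course 1. The 3′ arm had 2.12, 3.24, 1.24 and 2.05 CPM on days 1, 2, 3 and 4 of time course 2, against 2.51, 3.42 and 4.70 CPM on days 1, 3 and 4 of time course 1. The log2 differences were 2.65 ± 0.54 for the -5p strand, with no overlap, and -0.94 ± 0.65 for the 3′ arm, with overlap (SD, n = 3 days). The 3′ arm tags were not miR-149-3p as annotated: of 110 tags, 6 started within 3 nt of its start and 0 at the start itself, which allows a share of up to 2.73%.

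**Figure D3:**
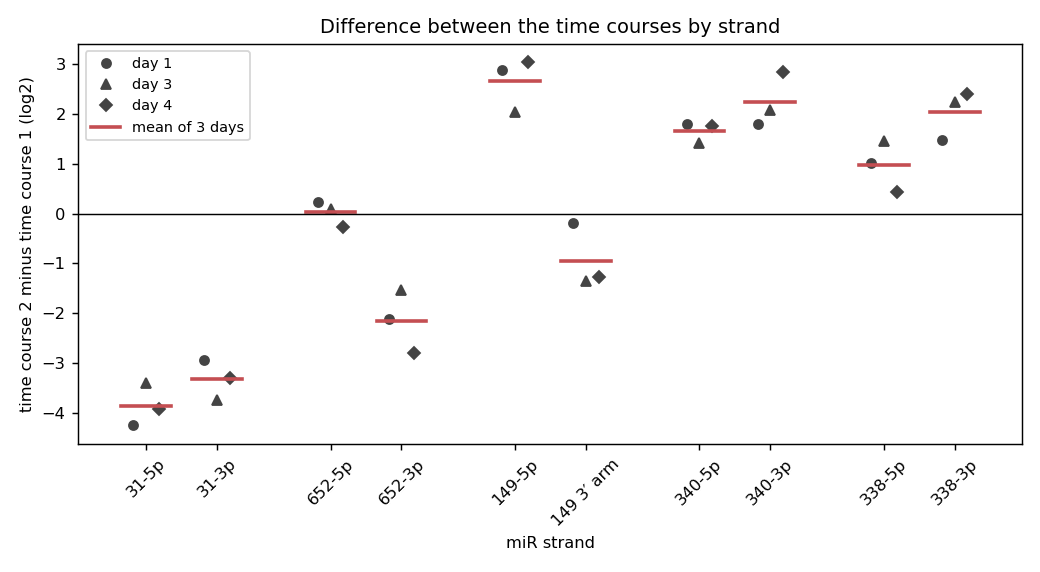
Log2 difference between the courses (time course 2 minus time course 1) for each of the 10 strands, with 1 point per day and a red line at the mean of 3 days. Both strands of mir-31, mir-340 and mir-338 lie on the same side of 0, while miR-652-5p lies at 0.02 and the 3′ arm of mir-149 at -0.94, away from their partner arms.

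The share of the 5′ arm in a hairpin shows the same values as proportions. In mir-652 the 5′ arm gave 14.5, 34.6, 11.6 and 22.3% of tags on days 1, 2, 3 and 4 of time course 2, against 3.18, 4.06 and 4.72% on days 1, 3 and 4 of time course 1. Pooled over libraries it was 18.8% (255 of 1356 tags, 95% Wilson interval 16.8 to 20.97%) in time course 2, against 3.74% (160 of 4279, 3.21 to 4.35%) in time course 1. The courses did not overlap in any library, but how many other hairpins lack overlap of this share was not counted. The share was highest on day 2. On that day 43 of the 82 tags of the 5′ arm were a form of 18 nt that starts 3 nt inside miR-652-5p. Only 15.9% of them used the annotated start, so the day 2 share does not stand for the annotated strand. These intervals cover counting error only, since SOLiD tags without molecular identifiers are not independent molecules.

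In mir-149 the 5′ arm gave 97.4, 91.7, 97.8 and 96.9% of tags on days 1, 2, 3 and 4 of time course 2, against 81.4, 80.5 and 60.3% on days 1, 3 and 4 of time course 1. Of mir-340, 36.6% of tags came from the 5′ arm in time course 2, against 41.3% in time course 1, and the libraries overlapped. In mir-31 it gave 52.5, 52.9, 68.0 and 40% on days 1, 2, 3 and 4 of time course 2, against 73.3, 62.1 and 51.1% on days 1, 3 and 4 of time course 1, with overlap. In mir-338 it gave 10.5 to 14.4% in time course 2, against 16.1 to 40% in time course 1, without overlap. How many other hairpins lack overlap of this share was not counted. On days 1 and 3 the Wilson intervals of mir-338 overlapped, and on day 4 they did not. On day 3 they were 6.58 to 16.4% in time course 2, against 7.09 to 32.6% in time course 1. On day 4 they were 9.41 to 21.4%, against 23.4 to 59.3%. The time course 1 shares of mir-338 rest on only 11, 5 and 10 tags of the 5′ arm on days 1, 3 and 4. Of these, 8, 2 and 5 started within 3 nt of the annotated start. As log2 odds of the 5′ over the 3′ arm, the courses differed by 3.59 ± 0.64 for mir-149 and 2.17 ± 0.48 for mir-652 (SD, n = 3 days). These ranked 1 and 3 in size among 260 hairpins whose median size was 0.487. The ranks only describe, since the hairpins were chosen on their level in this contrast. For mir-149 the odds set miR-149-5p against 110 tags of the 3′ arm, of which 0 began at the annotated start of miR-149-3p. mir-338, mir-340 and mir-31 differed by -1.07, -0.58 and -0.54 and ranked 38, 108 and 119. The ratio of the arms of mir-340 and mir-31 was thus near the middle of the table although their levels differed.

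**Figure D4:**
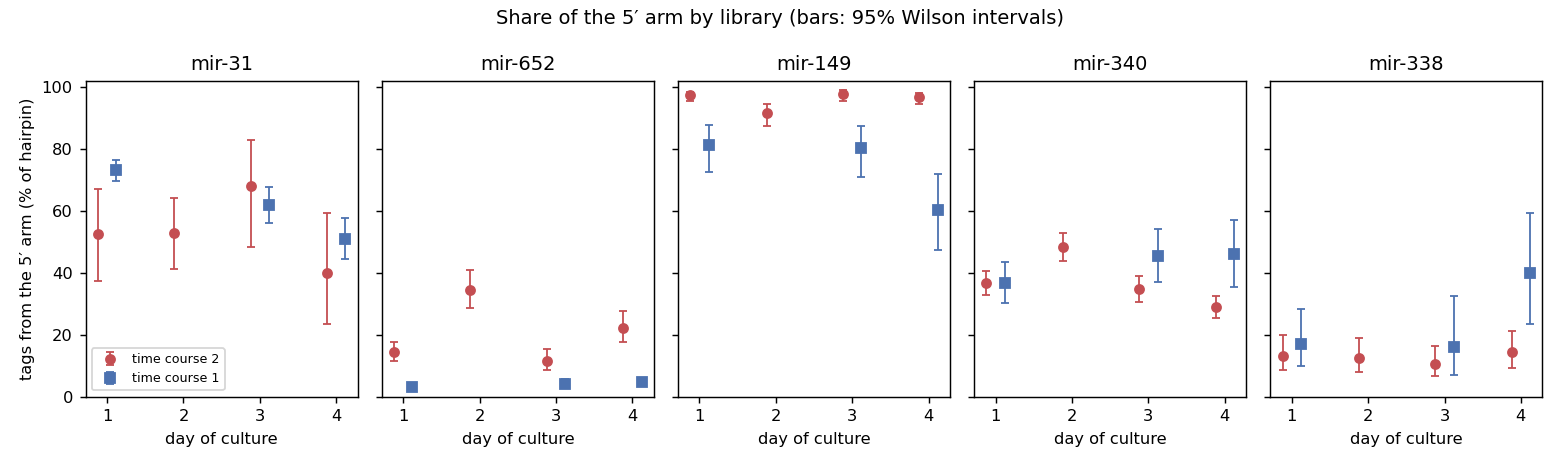
Share of a hairpin's tags that came from its 5′ arm (%) by day of culture, with 1 point per library and 95% Wilson intervals for counting error. Time course 2 (red circles) is above time course 1 (blue squares) in every library for mir-652 and mir-149, and the courses overlap for mir-340.

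The tags themselves show which molecules these counts stand for. The most frequent tag of each strand other than miR-149-3p, which had 0 tags at its annotated start, is printed as it was read, with T for U, from the first base at its 5′ end.
miR-31-5p: aggcaagatgctggcatagct
miR-31-3p: tgctatgccaacatattgccatc
miR-652-5p: ccctaggagggggtgcca
miR-652-3p: aatggcgccactagggttgtgc
miR-149-5p: tctggctccgtgtcttcactccc
miR-340-5p: ttataaagcaatgagactgatt
miR-340-3p: tccgtctcagttactttatagcc
miR-338-5p: aacaatatcctggtgctgagt
miR-338-3p: tccagcatcagtgattttgttga
The tag shown made up 54.0% of the tags of miR-338-3p, 49.6% of miR-31-3p, 43.4% of miR-340-5p, 42.0% of miR-652-3p, 34.0% of miR-31-5p, 29.4% of miR-340-3p, 28.6% of miR-149-5p, 27.2% of miR-652-5p and 24.5% of miR-338-5p. The tags of miR-149-5p, miR-31-3p and miR-340-5p match the annotated strand in full. Those of miR-652-3p, miR-340-3p and miR-338-3p run 1 nt past the annotated 3′ end, and those of miR-31-5p and miR-338-5p stop 1 nt short of it. The tag of miR-652-5p starts 3 nt inside the annotated strand, so bases 2 to 8 of the tag are not the annotated seed.

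The 5′ ends were mostly those of the annotation. The annotated start was used by 97.1% of the tags of miR-31-5p, 98.7% of miR-149-5p, 95.5% of miR-340-3p, 95.3% of miR-652-3p, 90.7% of miR-340-5p and 87.9% of miR-338-3p. Lower shares were found on the strands with fewer tags, at 70.3% for miR-31-3p, 63.3% for miR-338-5p and 41.4% for miR-652-5p. On miR-31-3p a form that starts 1 nt downstream, which shifts the seed by a base, made up 14.5% of tags, with 12.2% in time course 2, against 14.9% in time course 1. The annotated start of this strand was used by 52.6, 53.1, 50 and 40% of tags on days 1, 2, 3 and 4 of time course 2. In time course 1 it was used by 78.5, 69.6 and 71.6% on days 1, 3 and 4, without overlap. The time course 2 libraries hold only 19, 32, 8 and 15 tags of miR-31-3p, and how many other strands lack overlap was not counted. miR-31-5p used the annotated start in 66.7, 88.9, 88.2 and 100% of tags on days 1, 2, 3 and 4 of time course 2, against 98.97, 97.0 and 98.2% on days 1, 3 and 4 of time course 1. The share was lower in time course 2 on days 1 and 3 and not on day 4, and the time course 2 libraries hold only 21, 36, 17 and 10 tags of the strand.

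The 3′ ends were variable on every strand. miR-652-3p ended 1 nt past the annotated end in 45.1% of tags, 1 nt before it in 27.0% and at it in 19.0%. In miR-338-3p 66.3% of tags ended 1 nt past the annotated end and in miR-340-3p 47.2%. miR-652-3p ended 1 nt past the annotated end in 55.9, 47.1, 53.6 and 42.4% of tags on days 1, 2, 3 and 4 of time course 2, against 43.8, 41.9 and 43.5% on days 1, 3 and 4 of time course 1. The share was higher in time course 2 on days 1 and 3 and not on day 4, and over libraries the courses overlapped. miR-31-5p ended at the annotated end in 14.3, 6.06, 33.3 and 20% of tags on days 1, 2, 3 and 4 of time course 2, against 30.2, 29.9 and 27.7% on days 1, 3 and 4 of time course 1, again with overlap.

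**Figure D5:**
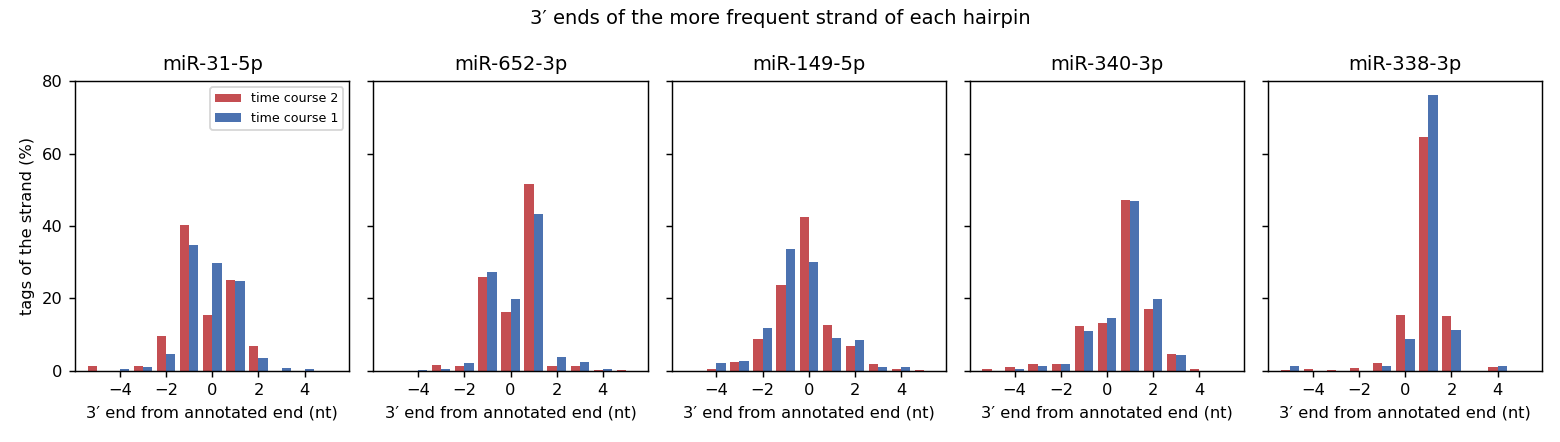
Share of a strand's tags (%) by the position of their 3′ end relative to the annotated end (nt), for the more frequent strand of each hairpin, pooled over the libraries of time course 2 (red) and time course 1 (blue). In both courses the miR-340-3p and miR-338-3p tags end most often 1 nt past the annotated end.

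Tags with a base that differed from the hairpin were 25.1% of miR-340-3p and 16.1% of miR-149-5p, against 5.79% of miR-652-3p and 2.23% of miR-31-5p. Positions are counted from 1 at the annotated 5′ end, with the reference base before the position and the tag's base after it. On miR-340-3p the most frequent was T19A with 79 tags, and T19C and T19G followed with 52 and 43. On miR-149-5p T20C had 68 tags and A18C 63, and on miR-652-3p T17G had 107 tags. Such tags were 25.3% of miR-340-3p in time course 2, against 23.9% in time course 1, and on miR-149-5p 16.2%, against 15.2%. These pooled shares are close on both strands, which were higher in time course 2, but single libraries varied widely and the courses overlapped. On miR-149-5p they were 9.65, 27.3, 14.2 and 19.9% on days 1, 2, 3 and 4 of time course 2, against 19.0, 17.1 and 2.86% on days 1, 3 and 4 of time course 1. On miR-340-3p they were 22.6, 35.3, 18.7 and 27.1%, against 16.5, 30.9 and 34.1% on the same days. On miR-652-3p such tags were 3.38, 5.16, 2.70 and 0% on days 1, 2, 3 and 4 of time course 2, against 8.01, 3.98 and 5.34% on days 1, 3 and 4 of time course 1, with overlap.

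A second question was whether these hairpins also changed over the days of culture, which the choice of members did not use. With the time course as a block, edgeR's quasi-likelihood test called 31 of 497 hairpins (6.24%) between day 4 and day 1 at an adjusted p of 0.05, and 0 of the 5. At an unadjusted p of 0.05 it called 2 of the 5, against 96 of all 497. DESeq2 called 0 of the 5 (2 unadjusted), against 28 of all 497 (66 unadjusted). Without the block edgeR called 0 of 497 hairpins (40 unadjusted) and 0 of the 5 (0 unadjusted). mir-31 and mir-652 had the largest changes, log2 fold changes of -0.91 ± 0.35 (SE, edgeR's adjusted p = 0.110) and -0.78 ± 0.34 (SE, edgeR's adjusted p = 0.152). Inside the courses mir-31 differed between day 4 and day 1 by -0.73 in time course 2, against -1.02 in time course 1, and mir-652 by -1.02, against -0.59. The other 3 had log2 fold changes of -0.45 (mir-338), -0.35 (mir-340) and -0.26 (mir-149), with edgeR's adjusted p of 0.555, 0.652 and 0.781.

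The day 4 value was below the day 1 value in both courses for all 5 hairpins, against 144 of all 497 (29.0%). The same held for 7 of the 10 strands, but the share over all strands was not counted. For mir-340 in time course 2 that difference was -0.01 log2 units, within any error, and none of the 5 passed the test, which had 2 residual degrees of freedom. On day 3 against day 1 the test called 15 hairpins (3.02%) and 0 of the 5 (1 of 5 at an unadjusted p of 0.05, against 62 of all 497). DESeq2 called 0 of the 5 (1 unadjusted), against 13 of all 497 (40 unadjusted). mir-652 and mir-31 were again the lowest, at -0.75 ± 0.34 and -0.69 ± 0.35 (SE, edgeR's adjusted p = 0.307 and 0.392). Leaving out the day 4 library of time course 1 moved mir-652 on day 4 to -1.19 with edgeR's adjusted p = 0.0320, and over all 13 alternatives its adjusted p ranged from 0.0320 to 0.889.

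Among strands, 26 of 728 (3.57%) passed the test between day 4 and day 1 and 0 of the 10 did (2 of 10 at an unadjusted p of 0.05, against 139 of all 728). DESeq2 called 0 of the 10 (2 unadjusted), against 40 of all 728 (97 unadjusted). miR-31-5p came nearest, with a log2 fold change of -1.30 ± 0.38 and edgeR's adjusted p = 0.0584. It had 3.42, 6.14, 3.01 and 1.57 CPM on days 1, 2, 3 and 4 of time course 2, against 67.9, 33.6 and 23.3 CPM on days 1, 3 and 4 of time course 1. The change between day 4 and day 1 was -1.12 in time course 2, against -1.54 in time course 1. Over 13 alternatives edgeR's adjusted p ranged from 0.0126 to 0.809 and passed the threshold in 3. The partner strand miR-31-3p differed by -0.16 ± 0.39 (edgeR's adjusted p = 0.888).

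The share of the 5′ arm was tested between day 4 and day 1 as well, for 260 hairpins with at least 20 arm tags in every library. limma called 7 of them (2.69%) and 0 of the 5. At an unadjusted p of 0.05 it called 0 of the 5, against 50 of all 260. The largest difference among the 5 was that of mir-31, -1.05 ± 0.53 log2 odds (SE, limma's adjusted p = 0.315), and mir-340 was at 0.02 ± 0.50.

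The hairpins whose levels moved most like each of the 5 were found as those with the highest Pearson r of log2 CPM over the 7 libraries, among 240 hairpins with a mean of at least 10 CPM. With 7 points that share their 2 time courses, r describes these libraries only. The nearest to mir-31 were let-7i (r = 0.952) and mir-33 (r = 0.938), and the nearest to mir-652 were let-7e (r = 0.984) and mir-1927 (r = 0.980). For mir-149 they were mir-878 (r = 0.995) and mir-129 (r = 0.974). mir-880 was nearest to both mir-340 (r = 0.995) and mir-338 (r = 0.990), followed by mir-872 (r = 0.979) and, for mir-338, by mir-340 itself (r = 0.979). Apart from mir-340 beside mir-338 (2.02 against 1.82), all these hairpins had smaller differences between the courses than the member they were nearest to. Those with the highest r were at -0.70 (let-7i), -0.91 (let-7e), 1.22 (mir-878) and 1.33 (mir-880).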

How the data were processed

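RNA below 70 nt was size-selected on flashPAGE gels, made into libraries by the small RNA kit of the SOLiD platform and read on that platform. Using the SOLiD Small RNA Pipeline, the authors aligned tags to miRBase hairpins and to the mouse genome (mm9 in the submitters' processing notes), and deposited raw counts of each distinct tag per library, with no normalization. The 101 lines (293 tags) without a sequence were left out.

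Each of the 79503 distinct tags was placed by its best ungapped hit on 1222 hairpins (1005 from RefSeq and 217 from GENCODE, both GRCm38), with at most 2 mismatches, at least 16 nt and an overhang of at most 4 nt. Hairpin copies were combined and tags shared by several hairpins were divided equally. Of the 41180696 deposited tags with a sequence, which are fewer than the paper reports as read, 99.7% were placed, 92.9% without a mismatch. Loci are those of GRCm38.p6 and were not converted to mm9.

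Counts per hairpin and per strand were compared between days with edgeR 4.0.16 (quasi-likelihood test, TMM, filterByExpr), with day and time course as terms and Benjamini-Hochberg adjustment over all features. Day 2 had 1 library, whose spread was taken from the other days. Arm shares were compared with limma 3.58.1 on log2 odds (pseudocount 0.5, at least 10 tags of each arm). The time course entered as a block because the study took ratios between days within each repeat. The replicate numbers come from the titles, and libraries with the same number deviated together (r = 0.319, 0.327 and 0.363 between days over 497 hairpins). Differences between time courses use a prior of 0.5 tags and have no test. DESeq2 1.42.0, R 4.3.3 and Python 3.11.15 were used. The scripts were tested on simulated data.

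The members were chosen on the difference between time courses, and members and lists were chosen with earlier results of these data known. Named hairpins are the 5 members and their strands, the antisense hairpin of mir-338, the 2 nearest hairpins of each member by r, the 2 hairpins on each side of the limit, the leading hairpins of marker lists that differ between courses, and mir-1a and mir-145a for scale.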

Additional observations from a re-analysis of the deposited data

Results flagged for a closer look

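In 3 strands the day 4 library was higher than the day 1 library in one time course and lower in the other. The change of miR-340-3p came to 0.16 log2 units in time course 2, against -1.01 in time course 1, a difference of 1.17. For the 3′ arm of mir-149 it came to -0.05 in time course 2, against 0.91 in time course 1, a difference of -0.96. For miR-338-5p it came to -0.05 in time course 2, against 0.41 in time course 1, a difference of -0.46. These differences were not tested, since each course has a single library a day. The last rests on 10 to 19 tags in each of the 4 libraries, and that of the 3′ arm of mir-149 on 13 to 23 tags.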

How the results depend on the processing

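The difference between the time courses kept its direction for all 5 hairpins under all alternatives, including those without day 1, day 3 or day 4, and stayed within its SD over days except that of mir-31, which was -3.81 over tags within 3 nt of an annotated start (added after seeing the data). Tests between days were less stable. With no replicate block, edgeR called 0 hairpins on day 4 (40 at an unadjusted p of 0.05), 0 on day 3 (22 unadjusted) and 0 strands (73 unadjusted), limma called 2 arm shares, and mir-338 on day 3 turned to 0.0495. Without mismatches the counts were 5 (day 4), 4 (day 3), 14 (strands) and 2 (arm shares), and mir-338 on day 3 was 0.0046. Library totals gave 8 hairpins on day 3 and 8 strands, tags of a single hairpin 20 (day 4) and 7 (day 3), DESeq2 40 strands, no filter 60 strands, and a pseudocount of 1 gave 16 arm shares. Leaving out each library gave 0 to 46 hairpins (day 4), 0 to 24 (day 3), 0 to 58 strands and 0 to 19 arm shares. Without the day 1 library of either course, edgeR called 0 hairpins on both days and 0 strands. Without the day 3 library of time course 2 it called 9 hairpins (day 3) and 58 strands, and without that of time course 1 it called 0 strands, and limma called 19 arm shares without either. Without the day 4 library of time course 2 the counts were 10 (day 4), 24 (day 3), 4 strands and 0 arm shares, and without that of time course 1 they were 58 strands and 2 arm shares. Among the fits that left out a library, small changes turned sign: on day 3 mir-149 ranged from -0.32 to 0.34, mir-340 from -0.30 to 0.19 and mir-338 from -0.51 to 0.29. On day 4 the 3′ arm of mir-149 ranged from -0.11 to 1.08, miR-31-3p from -0.55 to 0.0823, miR-338-5p from -0.15 to 0.66, miR-340-3p from -0.81 to 0.0772, miR-652-5p from -0.38 to 0.0776 and the arm odds of mir-340 from -0.41 to 0.46. miR-31-5p passed without a filter (edgeR's adjusted p = 0.0232), with tags of a single hairpin (0.0413) and without the day 3 library of time course 2 (0.0126). The causes were not tested. Depth limits mir-338 and mir-31, which had 25 tags in some libraries.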
